A study of Mus musculus with 6 samples.

Results

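Gdf15 and 9 genes of the integrated stress response were examined in microglia that overexpress PGC-1α and in their controls. The 10 genes were Gdf15, Fgf21, Atf4, Atf5, Ddit3, Trib3, Chac1, Asns, Sesn2 and Ppp1r15a, taken from every array probe whose transcript accession maps to one of these symbols. They were represented by 13 of 56605 probes and were 10 of the 23462 genes that a probe could be named for. The set was proposed with the difference of Gdf15 between the same 2 groups already known. Their levels and differences are therefore given as a description, without p-values. Microglia came from male mice aged 10 weeks on a C57BL/6 background and were selected magnetically through the surface receptor P2RY12, with 3 arrays per group. The transgene of PGC-1αf/f animals encodes PGC-1α joined to eGFP and stays silent until a Cre recombinase acts on its loxP sites. Littermates of this genotype without Cre served as controls. The mPGC-1α mice carry the same transgene together with a tamoxifen-activated Cre under the Cx3cr1 locus, which is active in microglia and also in other cells that express Cx3cr1. The paper describes a course of tamoxifen and a waiting time ahead of its experiments. For its study of morphology, it took brains of both genotypes after induction. Whether the controls of the arrays received tamoxifen is not stated separately. Nothing in the labels says that the 3 samples of a group came from separate animals or cultures, so the errors measure the spread between these samples, which may be technical.

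In the integrated stress response, kinases that sense amino acid shortage, unfolded protein, viral RNA or mitochondrial trouble phosphorylate the translation factor eIF2. General protein synthesis then slows, while translation of the transcription factor ATF4 increases. ATF4 acts on genes for amino acid supply, redox balance and feedback control, and it can induce the secreted hormones GDF15 and FGF21. Because ATF4 is controlled mainly at translation, its target transcripts are commonly used as the readout on expression arrays. GDF15 acts on the brainstem receptor GFRAL with its partner RET, and its gene also responds to p53 and to other stress pathways.

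ATF4 binds composite elements in which a C/EBP site and an ATF site are fused, called CARE or C/EBP-ATF response elements. The sequences before the start sites are shown because the 10 genes are grouped by their place downstream of ATF4, and a reader can see which windows hold such an element. Promoter windows of 250 bases before and 50 bases after a start were taken from RefSeq (GRCm38.p6), and all 10 genes had at least 1 window. Motifs were searched on both strands. They were CARE (TGATGNAAN), the cAMP response element CRE (TGACGTCA), the binding site of the PGC-1α partner ERRα (TNAAGGTCA) and AP-1 (TGANTCA). Printed below are the 250 bases before the start, 5′ to 3′ on the strand of the gene, with CARE or CRE matches in capitals. Gdf15 has 2 annotated starts, and neither window held any of these motifs.
Gdf15, first start, chr8:70632457-70632706, minus strand: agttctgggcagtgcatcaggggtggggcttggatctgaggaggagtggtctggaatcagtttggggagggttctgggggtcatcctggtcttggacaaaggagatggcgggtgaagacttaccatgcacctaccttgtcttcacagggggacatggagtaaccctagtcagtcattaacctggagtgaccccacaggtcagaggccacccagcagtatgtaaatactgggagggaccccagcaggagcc
Gdf15, second start, chr8:70632096-70632345, minus strand: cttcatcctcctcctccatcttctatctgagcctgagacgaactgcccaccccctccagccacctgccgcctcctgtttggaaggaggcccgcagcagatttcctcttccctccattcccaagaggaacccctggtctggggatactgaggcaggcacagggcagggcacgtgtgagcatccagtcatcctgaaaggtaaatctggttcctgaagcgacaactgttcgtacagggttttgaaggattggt
Fgf21, chr7:45615491-45615740, minus strand: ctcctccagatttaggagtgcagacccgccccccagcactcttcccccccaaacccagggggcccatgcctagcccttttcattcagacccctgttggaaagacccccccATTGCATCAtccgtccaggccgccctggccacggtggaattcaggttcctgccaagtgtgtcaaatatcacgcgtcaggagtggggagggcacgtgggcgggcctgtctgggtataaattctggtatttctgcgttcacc
Chac1, chr2:119350992-119351241, plus strand: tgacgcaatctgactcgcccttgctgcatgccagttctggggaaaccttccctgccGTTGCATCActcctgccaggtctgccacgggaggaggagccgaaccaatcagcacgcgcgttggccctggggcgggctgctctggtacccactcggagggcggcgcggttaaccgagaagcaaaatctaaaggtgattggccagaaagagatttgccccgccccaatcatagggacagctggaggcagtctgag
Asns, chr6:7693210-7693459, minus strand: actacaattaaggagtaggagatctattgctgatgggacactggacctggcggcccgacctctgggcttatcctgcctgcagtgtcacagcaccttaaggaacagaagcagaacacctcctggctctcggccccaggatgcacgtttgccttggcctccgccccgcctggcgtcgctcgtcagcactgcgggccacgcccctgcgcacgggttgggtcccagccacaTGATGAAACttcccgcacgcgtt
Ppp1r15a, chr7:45526269-45526518, minus strand: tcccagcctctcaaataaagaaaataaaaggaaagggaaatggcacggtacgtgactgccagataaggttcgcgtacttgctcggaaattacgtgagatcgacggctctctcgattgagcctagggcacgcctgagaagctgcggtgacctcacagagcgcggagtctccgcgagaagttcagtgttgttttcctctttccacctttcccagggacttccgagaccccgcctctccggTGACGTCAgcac

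A CARE match was present in 4 of the 10 genes. It lay from -140 to -132 in Fgf21, from -194 to -186 in Chac1 and from -23 to -15 in Asns, counted from the base before the start as -1. In Trib3 the match TTTACATCA lay from 14 to 22 after the start. The matches in Fgf21, Chac1 and Trib3 were on the strand opposite to the gene, so the printed letters are the reverse complement of the motif. In the background, 4.5% of 27025 genes and 3.95% of 32851 windows held the motif. Ppp1r15a held a CRE from -12 to -5, a motif found in 2.03% of genes. Ddit3 held an AP-1 match from -242 to -236 (8.97% of genes), and the ERRα motif was found in none of the 10 genes (1.43% of genes). No match overlapped another motif in these windows. A match describes letters in a window and not a bound site.

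Of the 6 arrays, 27025 to 30272 of 59305 spots were well above background and 0 were saturated. PGC-1αf/f replicate 3 stood apart, since its correlation with the remaining 5 averaged 0.928, against 0.962 to 0.972 for the rest. The Y-linked genes Ddx3y, Kdm5d, Uty and Eif2s3y were not well above background by any probe on mPGC-1α replicate 3, although all mice are labelled male. The female transcript Xist was well above background on PGC-1αf/f replicate 2 and on mPGC-1α replicates 2 and 3. Results are therefore also given without these arrays. All 14 marker genes of microglia passed the filter on dim probes. This cannot show identity or purity, since markers of other cell types were detected as well. Controls occupied slide row 1 and mPGC-1α samples slide row 2, so that row and group cannot be told apart. Slide columns 1 and 2 each held 1 array of both groups. The brighter Ppargc1a probe, for the targeted gene, gave 0.19, -0.44 and -1.21 in PGC-1αf/f and 0.57, 0.28 and 0.08 in mPGC-1α microglia. These groups overlapped, with a difference of 0.80 (SE 0.35). The dimmer probe also overlapped, with a difference of 0.59 (SE 0.38), and on mPGC-1α replicate 3 it was below 2 of the controls. Without PGC-1αf/f replicate 3 the differences of both probes fell to 0.44 and 0.26. All such values are log2 signal minus the 75th percentile of the array, so that 0 marks the percentile, and they are not compared between probes.

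The gene of the set with the greatest difference was Gdf15, a secreted member of the TGF-β superfamily released under cellular stress. Its single probe (A_55_P1960735) gave -3.54, -3.22 and -3.59 in the controls. In mPGC-1α microglia it gave -1.50, -0.96 and -1.03. All 3 mPGC-1α arrays lay above all 3 controls, with a gap of 1.73 between the closest arrays. On the scanner's own scale the signal was 87.2, 166 and 177 intensity units in the controls and 452, 859 and 721 in mPGC-1α samples. Controls averaged -3.45 ± 0.20 (SD, n = 3) and mPGC-1α samples -1.16 ± 0.29 (SD, n = 3), a log2 difference of 2.29 (SE 0.19) or 4.90-fold. The probe was well above background on 2 of the 3 control arrays and on all 3 mPGC-1α arrays, so the control level was near the lower limit of measurement. Within slide column 1 the difference was 2.04, and within column 2 it was 2.27. Leaving out 1 array at a time gave 2.19 to 2.46, and leaving out replicate 3 of both groups gave 2.15.

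Gdf15 was the only 1 of the 12 tested probes of the set to pass the limma adjusted p threshold of 0.05. Over all probes, 0.0792% of 25257 passed, which is 20 probes. The genes were chosen with this contrast known, so nothing is read from that call. The call was also sensitive to the arrays included. It was lost without PGC-1αf/f replicate 1 or 2, without mPGC-1α replicate 2 or 3, and without replicate 3 of both groups, whereas the difference itself stayed between 2.15 and 2.46. Over all probes the number of calls without these arrays was 15, 2, 1, 0 and 2, respectively. At an unadjusted p under 0.05 the limma fit without mPGC-1α replicate 3 had 3281 probes.

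**Figure D1:**
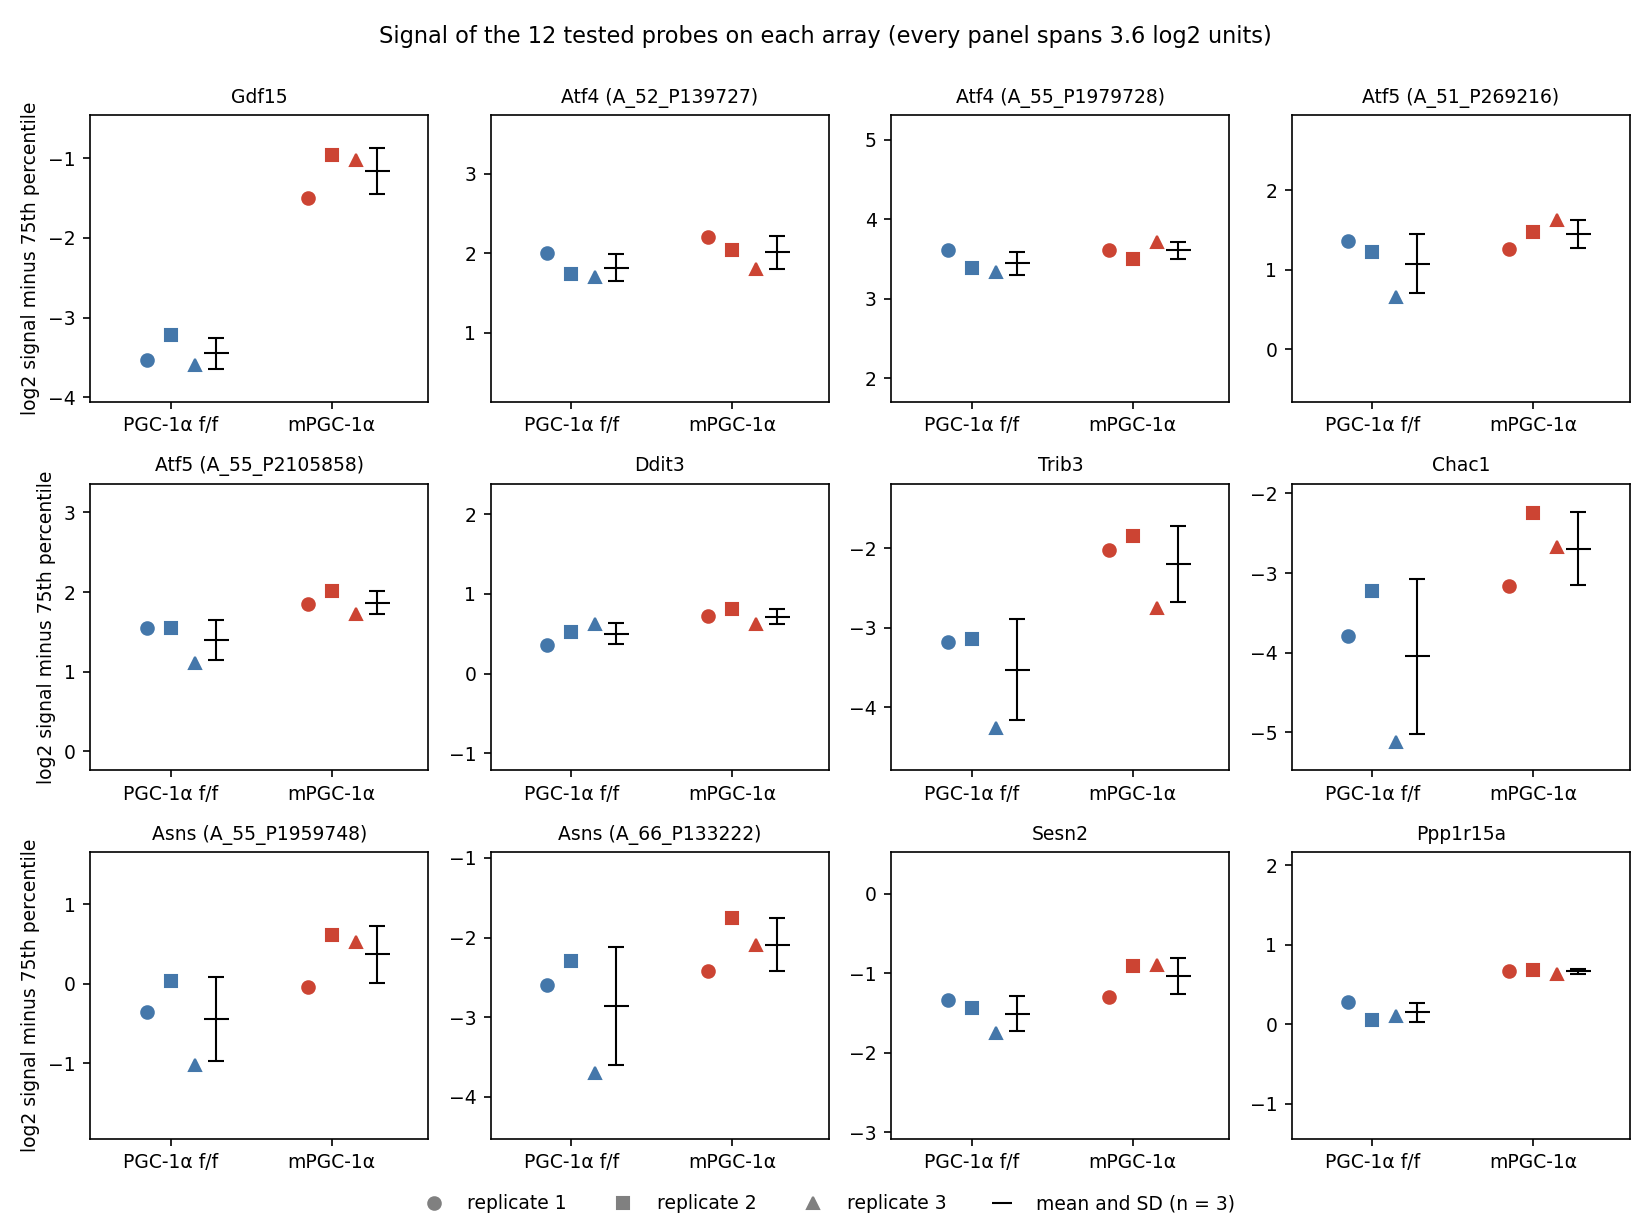
Log2 signal, from which the array's 75th percentile was subtracted, for each of the 12 tested probes, one panel per probe, with PGC-1αf/f arrays in blue and mPGC-1α arrays in red. Marker shape gives the replicate, and the black bar gives the mean ± SD (n = 3). Gdf15 shows the widest gap between the groups, and PGC-1αf/f replicate 3 is the lowest array for Chac1, Trib3, Asns, Sesn2 and Atf5.

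Fgf21, the other hormone of the set, acts on metabolism in the liver, adipose tissue and brain. Its probe (A_52_P235347) was not well above background on any of the 6, at 24.0 to 26.6 intensity units throughout. It was not tested and no fold is given. The receptor of GDF15 was not measurable either, since none of the probes of Gfral and Ret was well above background anywhere.

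Next, the transcription factors of the response were examined. Atf4 encodes the central effector. Its brighter probe (A_55_P1979728) gave 3.61, 3.39 and 3.33 in PGC-1αf/f and 3.61, 3.50 and 3.72 in mPGC-1α microglia. The groups overlapped, and the difference was 0.17 (SE 0.14). Its second probe (A_52_P139727) differed by 0.20 (SE 0.16), also with overlap. The differences ranged from 0.11 to 0.25 and from 0.10 to 0.31 when arrays were left out singly. Within slide column 1 the brighter probe differed by 0.0012, so that this pair of arrays was level. With the array median in place of the 75th percentile, which lowered the median difference of all probes to -0.14, the brighter probe differed by 0.03.

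Atf5, an ATF4 relative that is likewise controlled by translation and serves the mitochondrial stress response, was measured by 2 probes that did not give the same picture of overlap. The brighter probe (A_55_P2105858) gave 1.55, 1.54 and 1.11 in the controls and 1.85, 2.01 and 1.73 in mPGC-1α microglia. All mPGC-1α arrays lay above all controls, with a difference of 0.46 (SE 0.17). The second probe (A_51_P269216) gave 1.36, 1.22 and 0.65 against 1.26, 1.47 and 1.62, and here the groups overlapped. Its difference of 0.37 (SE 0.22) fell to 0.16 without PGC-1αf/f replicate 3 and to 0.07 without replicate 3 of both groups. Within slide column 1 the sign of this probe turned, at -0.10.

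Ddit3 encodes CHOP, a transcription factor associated with cell death under lasting stress. Its probe (A_52_P533146) gave 0.36, 0.53 and 0.62 in PGC-1αf/f and 0.72, 0.81 and 0.62 in mPGC-1α microglia. The groups touched at replicate 3 of both, and the difference was 0.21 (SE 0.14). Ddit3 was the one member that was lowest on PGC-1αf/f replicate 1, and without replicate 3 of both groups its difference was 0.32.

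Within the set, the greatest differences after Gdf15 were those of Chac1 and Trib3, both ATF4 targets and both dim in the controls. This rank did not hold with normexp background correction and quantile normalization, where the brighter Asns probe (0.84) lay above Chac1 (0.81). Chac1 encodes a γ-glutamylcyclotransferase that degrades glutathione. Its probe (A_51_P134812) gave -3.79, -3.22 and -5.12 in PGC-1αf/f and -3.16, -2.25 and -2.67 in mPGC-1α microglia. All mPGC-1α arrays lay above the controls, but only by 0.06 between the closest arrays. The difference was 1.35 (SE 0.48). It fell to 0.81 without PGC-1αf/f replicate 3, and likewise with normexp background correction and quantile normalization, and the within-column differences were 0.63 and 0.97. Only 1 of the 3 control arrays was well above background, against 3 of 3 mPGC-1α arrays.

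Trib3 encodes a pseudokinase that restrains AKT and ATF4 itself. Its probe (A_55_P2009988) gave -3.18, -3.14 and -4.26 in the controls and -2.02, -1.85 and -2.75 in mPGC-1α microglia. The groups did not overlap, and the gap was 0.39. The difference was 1.32 (SE 0.37) and fell to 0.96 without PGC-1αf/f replicate 3 and to 0.87 with normexp and quantile normalization. In both slide columns it was above 1, at 1.16 and 1.30. As for Chac1, 1 of 3 control arrays and 3 of 3 mPGC-1α arrays were well above background.

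Asns, asparagine synthetase, was measured by 2 probes well above background on all arrays. The brighter probe (A_55_P1959748) gave -0.36, 0.03 and -1.02 in PGC-1αf/f and -0.04, 0.61 and 0.53 in mPGC-1α microglia. The groups overlapped at mPGC-1α replicate 1 and PGC-1αf/f replicate 2. The difference was 0.81 (SE 0.30), and the second probe (A_66_P133222) differed by 0.77 (SE 0.37) with overlap too. Without PGC-1αf/f replicate 3 the values were 0.53 and 0.35. PGC-1αf/f replicate 3 was the lowest array for both probes.

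Sesn2 and Ppp1r15a stand for the protective and feedback arms. Sesn2 encodes sestrin 2, a leucine sensor that lowers mTORC1 activity and is also a p53 target. Its probe (A_51_P161354) gave -1.33, -1.44 and -1.75 against -1.30, -0.91 and -0.90. The groups were separate by only 0.03, with a difference of 0.47 (SE 0.18), and in slide column 1 the difference was also 0.03. Ppp1r15a encodes GADD34, the stress-induced subunit that directs a phosphatase to eIF2 and so ends the response. Its probe (A_55_P2136880) gave 0.28, 0.06 and 0.11 in PGC-1αf/f and 0.68, 0.69 and 0.63 in mPGC-1α microglia. The 3 mPGC-1α arrays lay close together, with an SD of 0.03, and the gap to the controls was 0.35. The difference was 0.52 (SE 0.13), or 1.43-fold, and stayed between 0.47 and 0.58 when arrays were left out singly. It was 0.38 with the array median in place of the 75th percentile and 0.60 with array weights.

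**Figure D2:**
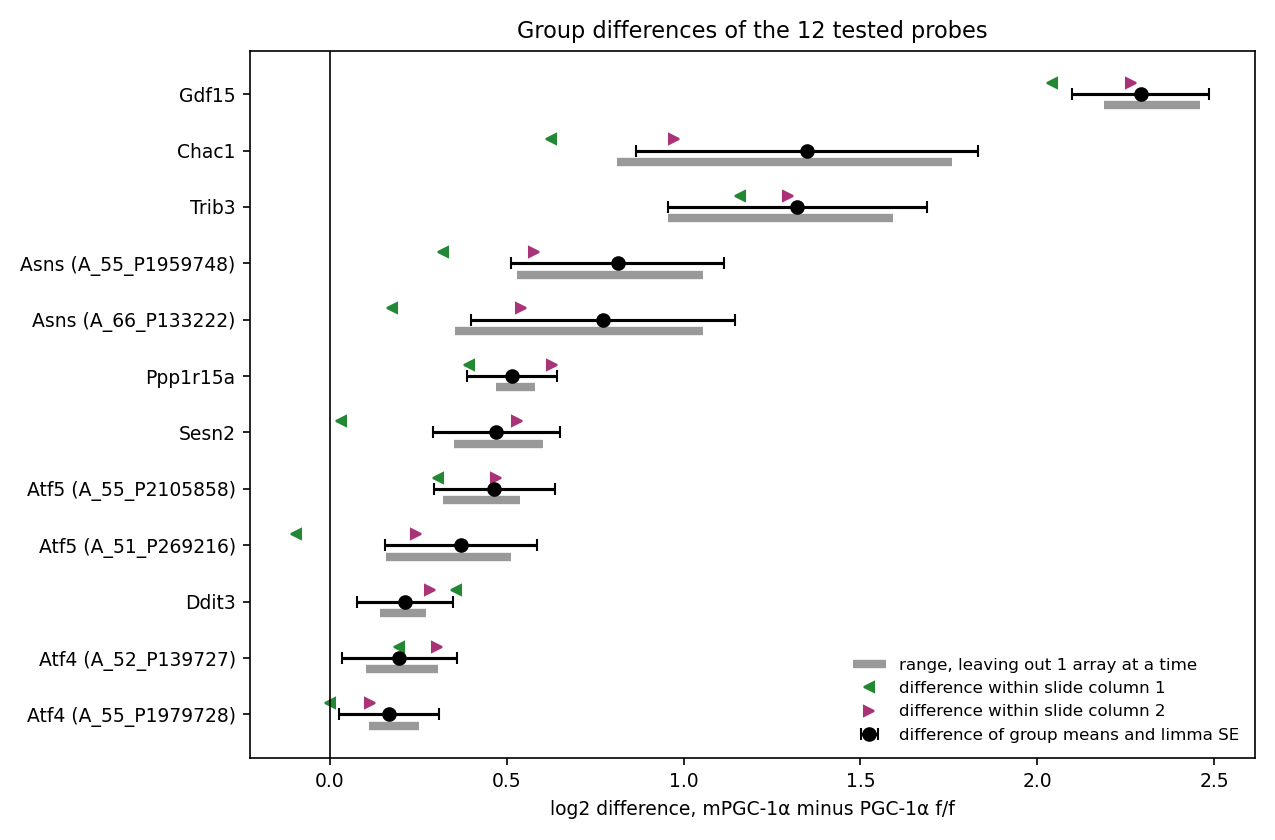
Log2 difference (mPGC-1α minus PGC-1αf/f) of each tested probe, with the limma SE as error bars, the range when 1 array at a time was left out as grey bars, and the differences within the 2 slide columns that held both groups as triangles. Gdf15 and Ppp1r15a have narrow ranges for their size, while Chac1 and both Asns probes extend far to the left.

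Considered together, 12 of 12 tested probes had a higher mean in mPGC-1α microglia, where 49.65% of all tested probes did. In 6 of the 12 probes all mPGC-1α arrays lay above all controls, compared with 11.4% of all tested probes with values on every array. By the brightest probe of each gene these were 6 of 9 genes, namely Gdf15, Atf5, Trib3, Chac1, Sesn2 and Ppp1r15a, compared with 12.2% of 12302 genes. The set was proposed from this contrast, so these shares are a description of it. Gdf15, Trib3 and Chac1 passed the filter on dim probes only through the mPGC-1α group, where they were high. With the filter on all 6 arrays, 6 genes remained, of which Atf5, Sesn2 and Ppp1r15a had separate groups, and the median was 0.47. The share of 12.2% belongs to the main filter, and none is given for this stricter filter. The median difference of the 9 genes was 0.52, and that of all genes 0.03. Without replicate 3 of both groups, 9 of 9 genes were higher, 7 did not overlap (22.0% of all genes in that smaller comparison) and the median was 0.45. A lone gene, Fgf21, had no tested probe. A lower number of cells of a type and less RNA per cell cannot be told apart in such samples.

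Most members shared the array on which they were lowest and the one on which they were highest, with Ddit3, Ppp1r15a, Atf4 and Sesn2 as exceptions on one side. PGC-1αf/f replicate 3 was the lowest array for 7 of the 9 genes, all except Ddit3 and Ppp1r15a. mPGC-1α replicate 2 was the highest for 7 genes, and replicate 3 for Atf4 and Sesn2. The median deviation of the 9 genes from the control mean was -0.24 on PGC-1αf/f replicate 3, and 0.45, 0.61 and 0.61 on the mPGC-1α arrays. Gdf15 itself was at -3.59 on PGC-1αf/f replicate 3 and -3.54 on replicate 1, whereas Chac1 was at -5.12 and -3.79.

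To find the genes most like Gdf15, Pearson's r over the 6 arrays was computed for 11565 genes well above background on all of them. The 5 highest were Wdr43 (r = 0.998), Dusp1 (0.993), Mrps11 (0.992), Aen (0.992) and Gm5129 (0.988). Dusp1 encodes a MAP kinase phosphatase induced early by stress, and Aen a nuclease induced by p53. Their differences were 0.28 for Wdr43, 2.24 for Dusp1, 0.53 for Mrps11, 0.71 for Aen and 1.56 for Gm5129. Because Gdf15 falls into a low and a high cluster by group, a gene higher in mPGC-1α microglia with little spread within groups has a high r. Separate groups alone did not bring r over 0.9. Chac1 (0.81), Trib3 (0.83), Atf5 (0.84) and Sesn2 (0.86) had separate groups. Of the 11565 genes, 1.76% exceeded 0.9. Ppp1r15a had an r of 0.93 and the remaining members ranged from 0.59 for Atf4 to 0.86 for Sesn2. After the group means were subtracted, r was 0.86 for Asns, 0.75 for Chac1 and Sesn2, 0.38 for Atf5, 0.18 for Trib3, 0.06 for Ddit3, -0.15 for Atf4 and -0.35 for Ppp1r15a. With 6 arrays from 1 slide these values are descriptions.

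**Figure D3:**
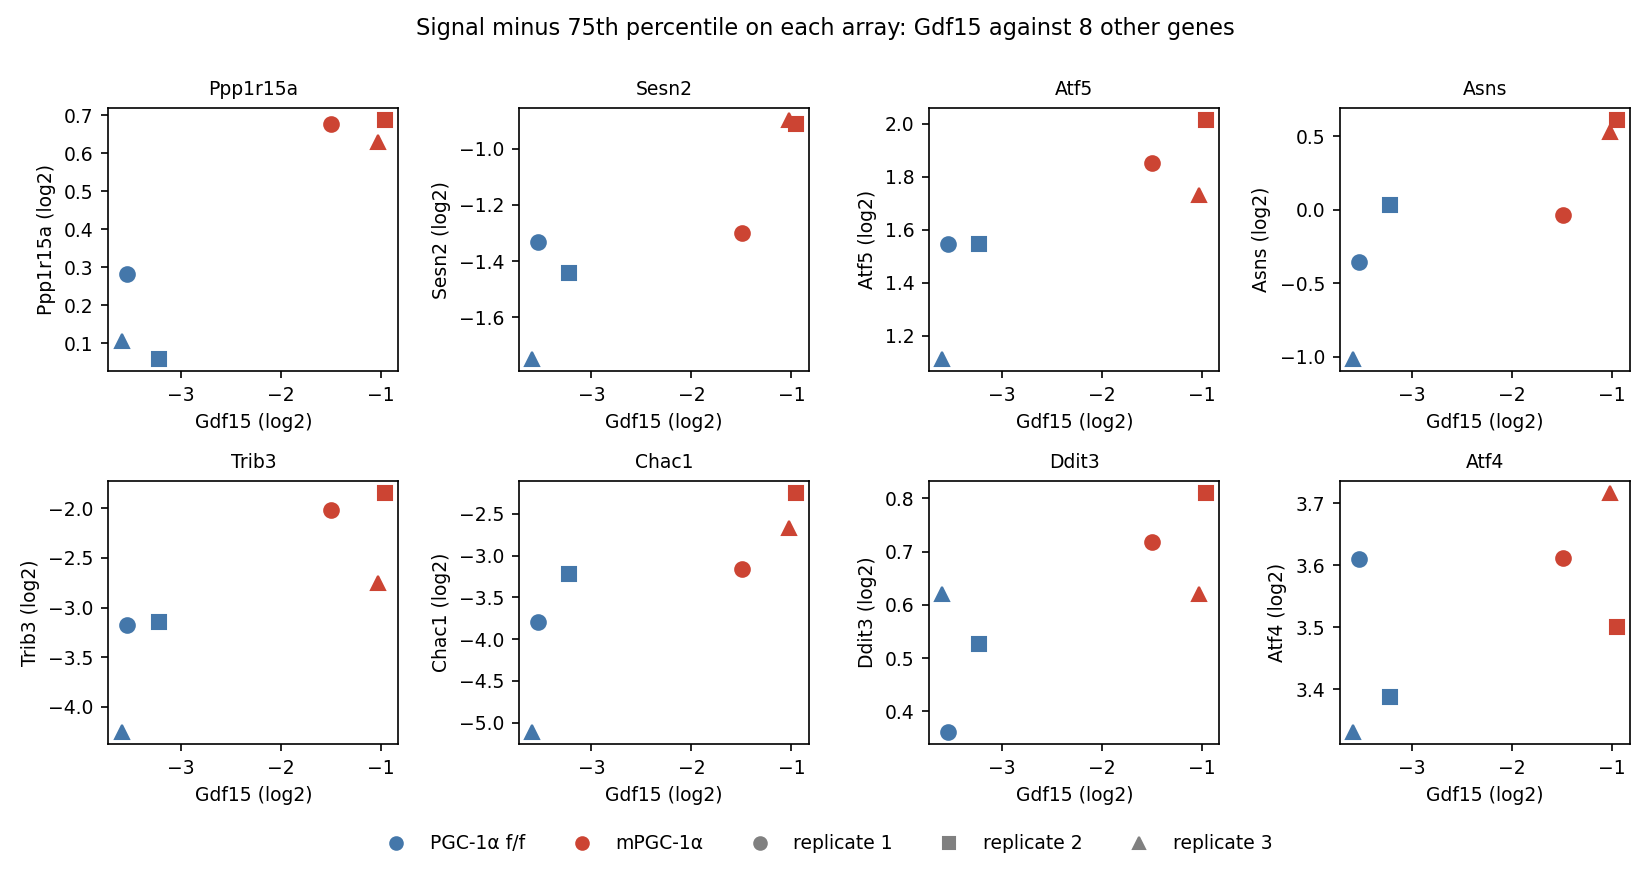
Log2 signal, from which the array's 75th percentile was subtracted, of 8 genes (vertical axes) against Gdf15 (horizontal axes) on the 6 arrays, with PGC-1αf/f in blue and mPGC-1α in red. Gdf15 splits the arrays by group in every panel. Atf5, Trib3, Chac1, Sesn2 and Ppp1r15a split them as well, and Atf4, Ddit3 and Asns do not.

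Next, the other genes of the pathway were described from lists, by the brightest probe of each gene. The 6 lists held 68 genes, of which 55 could be tested with a value on every array. By limma, 0 of 55 passed an adjusted p of 0.05, against 0.065% of 12302 genes, and 10 had an unadjusted p under 0.05. Of all 12302 genes, 1004 that were higher and 703 that were lower had such a p. Of the 55 genes, 32 were higher and 23 lower, with a median difference of 0.03, equal to that of all genes to 2 decimals. The smallest adjusted p among them was 0.212. Small differences in these lists, and in the 2 lists of neighbouring stress pathways described further on, had no stable size. Of 50 genes with a difference under 0.3 in either direction, 47 moved by over 1.5 times and 28 changed sign when a single array was left out.

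The list nearest to the members was that of stress regulators downstream of ATF4, with 9 of 10 genes higher and a median of 0.38. Ddit4, which encodes the mTORC1 inhibitor REDD1, gave 1.82, 2.64 and 0.49 in PGC-1αf/f and 3.38, 2.88 and 3.12 in mPGC-1α microglia. These groups did not overlap, and the difference was 1.48 (SE 0.50, limma adjusted p 0.242), which fell to 0.90 without PGC-1αf/f replicate 3. Jdp2, an AP-1 family repressor, differed by 0.75 (SE 0.24, limma adjusted p 0.223) without overlap, and by 0.49 without that array. At the other end, Cebpg and Cebpd, partners of ATF4 in C/EBP dimers, differed by -0.02 and 0.01, although a brighter Cebpg probe that lacked a value on 1 array gave -0.19. In this list 3 of 10 genes were separate and higher, against 12.2% of genes, the third being the translation repressor Eif4ebp1, at 0.48.

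The metabolic ATF4 targets were mixed. Among amino acid synthesis and folate-linked enzymes 8 of 11 were higher, with a median of 0.11, which fell to -0.02 with array weights or with the array median. Cth, the cystathionine γ-lyase that makes cysteine, gave -2.44, -3.16 and -3.15 against -1.60, -2.36 and -2.23, a difference of 0.85 (SE 0.28, limma adjusted p 0.234). Mthfd2, a mitochondrial folate enzyme, differed by 0.53 (SE 0.16, limma adjusted p 0.212). Pck2, the mitochondrial PEP carboxykinase, was lower, at -1.86, -1.53 and -1.29 against -2.11, -1.86 and -2.40. Its difference was -0.56 (SE 0.21, limma adjusted p 0.263). A far brighter Pck2 probe (A_52_P21659), with a value on 5 arrays and therefore not used for the list, differed by only 0.03 (SE 0.14), so the probes of Pck2 disagree. Gpt2 differed by -0.20, or by -0.05 without mPGC-1α replicate 3. Groups did not overlap in 2 genes that were higher, Cth and Mthfd2, and in 2 that were lower, Pck2 and the mitochondrial folate enzyme Aldh1l2 (-0.38, or -0.21 without mPGC-1α replicate 1). These are 2 of 11 genes in each direction, against 12.2% and 10.8% of all genes.

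Amino acid transporters were split 3 higher and 3 lower, with a median of 0.01. The glutamine carrier Slc1a5 had the greatest difference, 0.55 (SE 0.18, limma adjusted p 0.238), without overlap, and the arginine carrier Slc7a1 followed with 0.37. The glycine carrier Slc6a9 differed by -0.53, which was -0.31 without mPGC-1α replicate 3 and -0.88 without replicate 1, and Slc38a2 by -0.08, both with overlap. Of the cystine and leucine carriers, Slc7a11 and Slc7a5 were well above background on 0 of the 6 arrays. Of the tRNA synthetases, 11 had values on all arrays by their brightest usable probe, 5 higher and 6 lower, with a median of -0.05 and no separate groups. Their extremes were -0.35 for Aars, which was -0.19 without mPGC-1α replicate 3, and 0.15 for Eprs, which was 0.07 without the same array. Iars was at 0.09, or 0.02 without PGC-1αf/f replicate 2. In addition, 2 dimmer Eprs probes had separate groups in opposite directions, at -0.30 and 0.33. The tRNA exporter Xpot and the threonyl-tRNA synthetase Tars had values on 5 arrays and stood outside that count, with differences of -0.44 and 0.34. For Xpot, both mPGC-1α arrays with a value lay below all 3 controls.

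Upstream of ATF4, the list of eIF2 kinases and regulators of eIF2 phosphorylation had 6 of 9 genes lower and a median of -0.30. The kinases were mixed, since Eif2ak1 (-0.15) and Eif2ak4 (-0.35) were lower with overlap and Eif2ak2 was higher. The kinase gene Eif2ak3, Impact and Ppp1r15b lacked a value on some arrays and were not counted. In 4 of the 9 the mPGC-1α arrays all lay below the controls, against 10.8% of genes. None of these 4 encodes an eIF2 kinase. Oma1, the mitochondrial protease that starts stress signalling to the eIF2 kinase HRI, gave 0.91, 1.08 and 1.35 against 0.55, 0.73 and 0.80. Its difference was -0.42 (SE 0.16, limma adjusted p 0.274). Dele1, the messenger cleaved by OMA1, differed by -0.34 (-0.22 without mPGC-1α replicate 3), the GCN2 activator Gcn1 by -0.30, and the adaptor Nck1 by -0.38 (limma adjusted p 0.265). Eif2ak2, which encodes the kinase PKR that senses viral RNA, was separate in the opposite direction, at 0.25. Dnajc3, an inhibitor of these kinases, differed by 0.04. Without PGC-1αf/f replicate 3 the median of the list was -0.21.

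The subunits of eIF2 and of its exchange factor eIF2B had a median difference of 0.01, with 4 of 8 genes higher. Eif2b1 and Eif2b5 were separate and higher, by 0.32 and 0.15, and Eif2b4 differed by -0.13. Eif2b5 was at 0.09 without mPGC-1α replicate 2, and Eif2b4 at -0.03 without replicate 1. The exception was Eif2s3x, the X-linked γ subunit of eIF2, at 2.07, 1.45 and 2.70 in PGC-1αf/f and 2.09, 1.68 and -1.12 in mPGC-1α microglia. A single array, mPGC-1α replicate 3, was low, and the Y-linked copy Eif2s3y was not well above background on the same array. The sequences of both copies are alike, and whether the probe tells them apart was not tested.

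**Figure D4:**
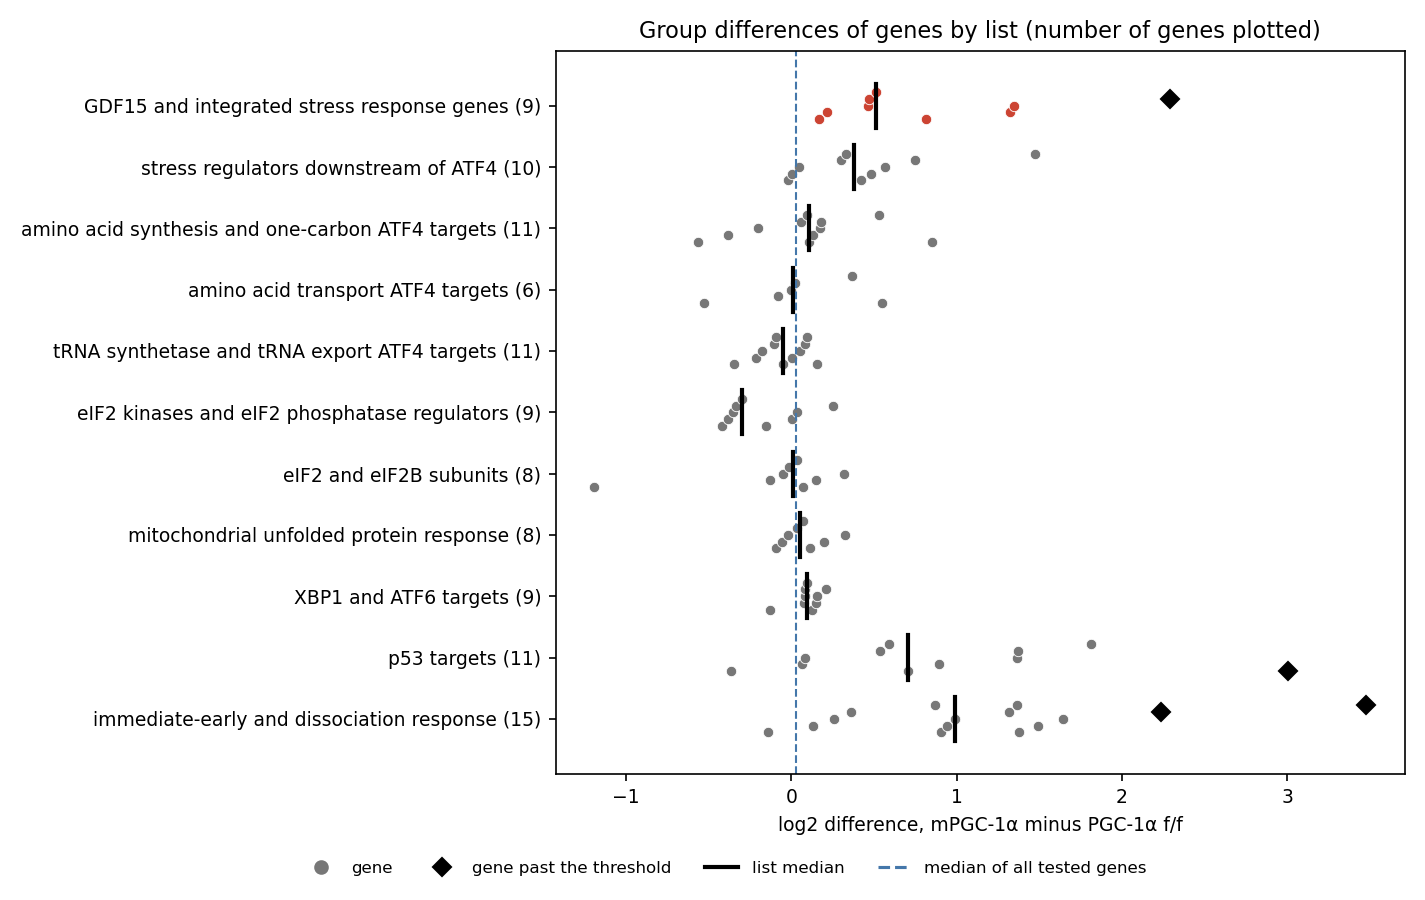
Log2 difference (mPGC-1α minus PGC-1αf/f) of each gene by its brightest probe, in 11 lists, with black bars for the list medians, diamonds for genes past a limma adjusted p of 0.05 and a dashed line for the median of all tested genes. The members in red all lie to the right of the dashed line, while the lists of transporters, tRNA synthetases and eIF2 subunits are centred on it.

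Neighbouring stress pathways were set beside the members. The mitochondrial unfolded protein response, with 5 of 8 genes higher, had a median of 0.05, which was -0.08 with the array median and -0.0012 without PGC-1αf/f replicate 1. Differences ranged from Clpx at -0.09 to the protease subunit Clpp at 0.33. Hspe1 and Htra2 lay between them, at 0.20 and -0.05. A dimmer Hspe1 probe (A_55_P1953063) had separate groups and a greater difference, 0.57 (SE 0.13). Another dimmer Hspe1 probe (A_66_P124339), which lacked a value on 1 array, gave 0.39. A brighter Clpx probe that lacked a value on 1 array gave -0.45. The XBP1 and ATF6 targets of the endoplasmic reticulum had 8 of 9 genes higher, although the median was 0.10 and no gene had separate groups. The median was -0.03 with the array median, 0.02 with quantile normalization, and 0.06 to 0.18 when 1 array was left out. Differences ranged from -0.13 for Edem1 to 0.21 for Creld2, with Xbp1 at 0.08 and Dnajb11 at 0.15. Of p53 targets, 10 of 11 were higher, with a median of 0.71, and 7 genes were separate and higher, against 12.2% of all genes. All gene lists were chosen with earlier results of these data known, so their shares and p-values are descriptions. Cdkn1a, which encodes p21, rose by 3.00 (SE 0.19, limma adjusted p 0.00726). Gdf15 and Sesn2 are known p53 targets too, but were kept out of that list.

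The levels of other genes that moved with the members were recorded by array. Immediate-early and dissociation response genes were higher in 14 of 15 cases with a median of 0.99, and 12 were separate and higher, against 12.2% of all genes. As for the p53 targets, this list was chosen with earlier results known, and its values are descriptions. Fosb rose by 3.48 (SE 0.29, limma adjusted p 0.0169) and Dusp1 by 2.24 (SE 0.16, limma adjusted p 0.0122). Their summed level, in multiples of the array's 75th percentile, was 45.5 to 51.9 in PGC-1αf/f and 76.3 to 85.1 in mPGC-1α microglia. Within slide columns 1 and 2 the median differences of that list were 1.05 and 0.93, and those of the members 0.36 and 0.58. The part of this response in the levels of Gdf15 and the other members was not tested.

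Markers of blood leukocytes were well above background on at least 1 array for 19 of 21 genes, and the B cell marker Cd79a on none. Their summed level was 131, 160 and 20.9 in the controls, against 160, 175 and 197 in mPGC-1α samples. PGC-1αf/f replicate 3, the array lowest for 7 of 9 members, thus held the least leukocyte signal. The median difference of 18 measured leukocyte genes was 1.44, and 0.36 without that array. Oligodendrocyte markers, detected for 15 of 15 genes, had summed levels of 19.5 to 25.5 in PGC-1αf/f and 13.6 to 16.1 in mPGC-1α microglia. Endothelial and mural markers, 10 of 13 detected and Tek, Rgs5 and Kcnj8 on none, were at 15.5, 16.4 and 4.39 and at 15.4, 19.5 and 20.8. Markers of microglia, summed over the 8 of 14 with a value on all arrays, were at 137 to 167 and 129 to 147. Of these 8, 6 were lower and 2 higher. Cx3cr1, the locus that carries the Cre, differed by -0.51 (SE 0.14) without overlap. Border macrophage markers, of which 9 of 9 were detected and 8 had a value on all arrays, summed to 18.4 to 19.8 in PGC-1αf/f and to 17.9, 21.1 and 28.6 in mPGC-1α samples. All 8 were higher (median 0.34), but 5 of 8 without mPGC-1α replicate 3 (median 0.07). Erythroid markers were, like those of leukocytes, lowest on PGC-1αf/f replicate 3, at 34.4, 32.5 and 11.6 in the controls and 20.2, 21.5 and 37.4 in mPGC-1α samples. Without PGC-1αf/f replicate 3 the members still had 9 of 9 genes higher, with a median of 0.49, and 7 with separate groups against 15.6% of all genes in that comparison. The part of other cell types in the differences was not tested.

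**Figure D5:**
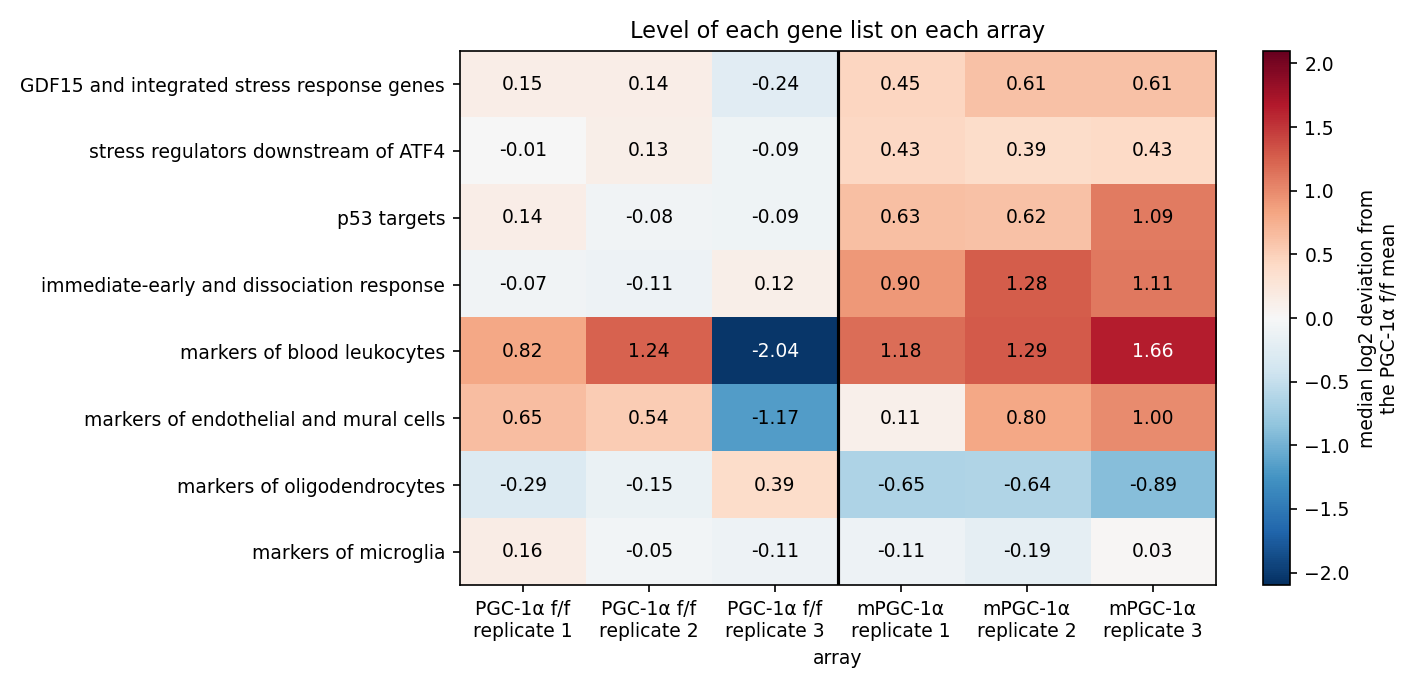
Median log2 deviation of each gene list from the PGC-1αf/f mean on each of the 6 arrays (columns), with red above and blue below that mean. The members and the immediate-early genes are higher on all mPGC-1α arrays, and PGC-1αf/f replicate 3 is at -2.04 for leukocyte markers.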

How the data were processed

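Sorted microglia of 3 PGC-1αf/f and 3 mPGC-1α samples were profiled on 1-colour (Cy5) Agilent mouse arrays, with groups and replicate numbers taken from the labels. The deposited scanner files hold intensity values per spot from Feature Extraction 11.5.1.1 after background subtraction and spatial correction by the authors, not yet normalized between arrays, and the deposited series table holds the same intensity values. The authors used GeneSpring for normalization and gave no test per gene for the arrays.

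Control and outlier-flagged spots were left out. From the log2 intensity of the deposited files the 75th percentile of the array was subtracted, and spots of a probe were averaged. A probe was well above background where at least 0.5 of its spots were, and 25333 of 56605 probes met this on every array of 1 group or both and were tested with limma 3.58.1 in R 4.3.3 (lmFit and eBayes, two-sided, Benjamini-Hochberg adjustment). A p-value was available for 25257. A dim probe may pass this filter through the group in which it is bright. Accessions were matched to RefSeq symbols, which named 33767 probes. Where 1 value per gene was needed, the brightest probe with values on all 6 arrays stood for it. The code of the fit was also run on simulated data with known log2 differences, and no result here rests on that run. The 6 arrays limit the precision. Figures used matplotlib 3.10.9.

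The members and all gene lists were chosen with earlier results of these data known. All members, Ppargc1a and the 5 genes most like Gdf15 were named. From each other list, genes past the threshold were named, or else the 2 highest and 2 lowest well above background on all arrays. Some genes with separate groups, the remaining eIF2 kinases, Impact and Ppp1r15b were added after their values were seen. So were probes that disagree or lack a value on 1 array. Marker lists are given by their sums instead, apart from Cx3cr1 and genes that were not detected. One tRNA synthetase that the rule picks is counted but not named. Alternatives were quantile normalization, the array median, normexp (offset 50) followed by quantile normalization, the deposited table, 2 other filters, a replicate block, the slide column as a random block, array weights, the mean over probes of a gene, and leaving out arrays.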

Additional observations from a re-analysis of the deposited data

How the results depend on the processing

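All 189 values of the 12 tested member probes under 16 alternatives were above 0, and 6 of them moved by over 1 SD of the replicates. These were Gdf15 with normexp and quantile normalization (1.76), the brighter Atf4 probe (0.03) and Ddit3 (0.08) with the array median, the dimmer Atf5 probe without replicate 3 of both groups (0.07), and Ppp1r15a with array weights (0.60) and with the array median (0.38). Further shifts of over 1.5 times lay within that spread. With normexp and quantile normalization, Chac1 was at 0.81, Trib3 at 0.87 and Ddit3 at 0.11. With array weights the Asns probes were at 0.54 and 0.49 and the dimmer Atf5 probe at 0.24. The brighter Atf4 probe was at 0.06 with quantile normalization, and the dimmer Atf4 and Atf5 probes were at 0.06 and 0.24 with the array median. The cause was not tested.

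Counts of calls by limma moved more. The 20 calls over all probes became 3494 with array weights, 501 with the deposited table, 138 with a random block for slide column, 11 with the array median, 11 with normexp and quantile normalization, 9 without a filter on dim probes, 4 with the filter on all 6 arrays, 8 when the probes of a gene were averaged, and 2 without replicate 3 of both groups. Leaving out 1 array gave 0 to 24. The replicate block gave 0 calls, although 4697 probes had an unadjusted p under 0.05. The deviations of same-numbered arrays correlated at 0.139, 0.127 and 0.0187, below the 0.1 required of every pair at replicate 3, and no pairing was assumed. The arrays of replicate 3 lay in different slide columns, so their value does not bear on pairing by column. With slide column as a random block, the correlation fitted within columns was 0.349.

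Among the members, 1 call became 5 with array weights (Atf5, Gdf15, Ppp1r15a, Sesn2 and Trib3) and 0 with the replicate block, without a filter on dim probes, with the filter on all 6 arrays (which Gdf15 did not pass) and without replicate 3 of both groups. Leaving out 1 array gave 0 to 1. In the other lists of the response, 0 calls became 6 with array weights and 1 with the deposited table, and leaving out 1 array gave 0 to 0.

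The median of the eIF2 kinases and phosphatase regulators (-0.30) was -0.23 with array weights, -0.24 with the mean over probes, -0.43 with the array median, -0.23 without a filter and -0.21 without replicate 3 of both groups, and -0.31 to -0.21 leaving out 1 array. With the array median, which moved the median of all probes to -0.14, the medians were -0.12 for eIF2 subunits, -0.023 for amino acid synthesis, -0.12 for transport, -0.18 for tRNA synthetases and 0.24 for stress regulators. Amino acid synthesis was at -0.021 with array weights, and transport at 0.37 without a filter on dim probes and at -0.046 to 0.14 leaving out 1 array.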
